A study of Mus musculus with 9 samples.

Results

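Glycolysis and the response to low oxygen were described through 34 mouse genes, of the 45777 genes in the tables: 3 glucose transporters, 17 enzymes from hexokinase to lactate dehydrogenase, the lactate exporter Slc16a3, the regulators Pdk1, Pfkfb3 and Pfkfb4, 3 genes of the hypoxia-inducible factor (HIF) pathway and 7 of its targets. They were chosen by name, for their place in these pathways, and each was found by its gene ID. All 34 passed the filter on low values (at least 1 TPM in at least 3 samples), as did 13820 genes in all.

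The data were bulk RNA sequencing of CD11b+ cells taken from mouse liver 48 hours after an overdose of acetaminophen (APAP), which injures the liver. CD11b, an integrin chain, marks myeloid cells such as monocytes, macrophages and neutrophils. Every mouse had received APAP, so no level of the uninjured liver was analysed here. The PBS group (3 samples) received PBS, the HEK-EV group (3 samples) received SIRP-EV vesicles of HEK cells, a human embryonic kidney line, and the MSC-EV group (3 samples) received SIRP-EV vesicles of MSC. Vesicles were given 8 hours after APAP. SIRP and MSC are not spelled out in the labels, which also give no strain, age, sex or dose. The labels number the samples of a group as replicates without saying whether each came from its own animal, so p-values measure the spread between these samples.

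Glycolysis splits glucose into pyruvate in the cytosol. Glucose enters through transporters of the Slc2a family, hexokinase and phosphofructokinase commit it, the later enzymes recover ATP, and lactate dehydrogenase turns pyruvate into lactate, which leaves through Slc16a3 (MCT4). HIF-1, made of Hif1a and its partner Arnt, is degraded when oxygen is plentiful because prolyl hydroxylases (the Egln genes) mark it, and it drives many of these genes when oxygen is low. In macrophages and neutrophils a high rate of glycolysis accompanies inflammatory activation, also with oxygen present.

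Several facts of the libraries touch the results. Relative depth, taken as coverage divided by FPKM, ran from 5.28 to 6.32 in PBS, 6.25 to 6.47 in HEK-EV and 6.58 to 6.84 in MSC-EV samples. Every MSC-EV sample thus had a higher relative depth than every other sample. A fit with depth as a covariate therefore cannot cleanly separate depth from the MSC-EV group. The 10 general myeloid markers were present in all samples, with a summed level of 22956 to 28670 TPM, and the 10 lymphocyte markers summed to 9.92 to 21.0 TPM. Cd3e, Cd3d, Cd8a and Klrb1c stayed under 1 TPM, whereas Cd4, Cd79a and Nkg7 reached 5.87, 6.62 and 4.26 TPM and Nkg7 was called higher in MSC-EV in both of its comparisons. The pancreatic acinar markers stood out in 3 samples, where they summed to 151.5 and 3305 TPM in replicates 1 and 3 of MSC-EV and 1165 TPM in replicate 2 of HEK-EV, against 11.5 to 39.1 TPM in the other 6. In MSC-EV against PBS, 8 of 10 genes of lipid-associated macrophages and 7 of 10 biliary genes were called higher, and 5 of 10 genes of Ly6C-high monocytes were called lower. In bulk samples, fewer cells of a type and less RNA per cell cannot be told apart.

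These CD11b+ cells held the whole chain of enzymes in every sample. The 17 enzyme genes took 0.550% to 0.628% of all TPM, with group means of 0.587% ± 0.0361 (SD, n = 3) in PBS, 0.573% ± 0.0383 in HEK-EV and 0.560% ± 0.00526 in MSC-EV. Levels are TPM, which is per transcript length and can be set side by side between genes. Pyruvate kinase (Pkm, 1053 to 1299 TPM) and glyceraldehyde-3-phosphate dehydrogenase (Gapdh, 951 to 1109 TPM) were the most abundant, at ranks 128 and 148 by mean level among the 13820 genes, and the ranges of these 2 rows overlapped. Near-identical copies of Gapdh held a further 1395 to 1781 TPM, against 12.6 to 18.6 TPM for the copy of Pkm, so the order of this pair is uncertain to that extent. Enolase (Eno1) followed with 717 to 1001 TPM and aldolase A (Aldoa) with 670 to 828 TPM, again with overlapping ranges. Phosphofructokinase was the enzyme step of lowest level, with 60.0 to 80.4 TPM over its 3 genes, and hexokinase held 211 to 266 TPM over 3 genes. The 3 glucose transporters summed to 108 to 153 TPM.

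**Figure D1:**
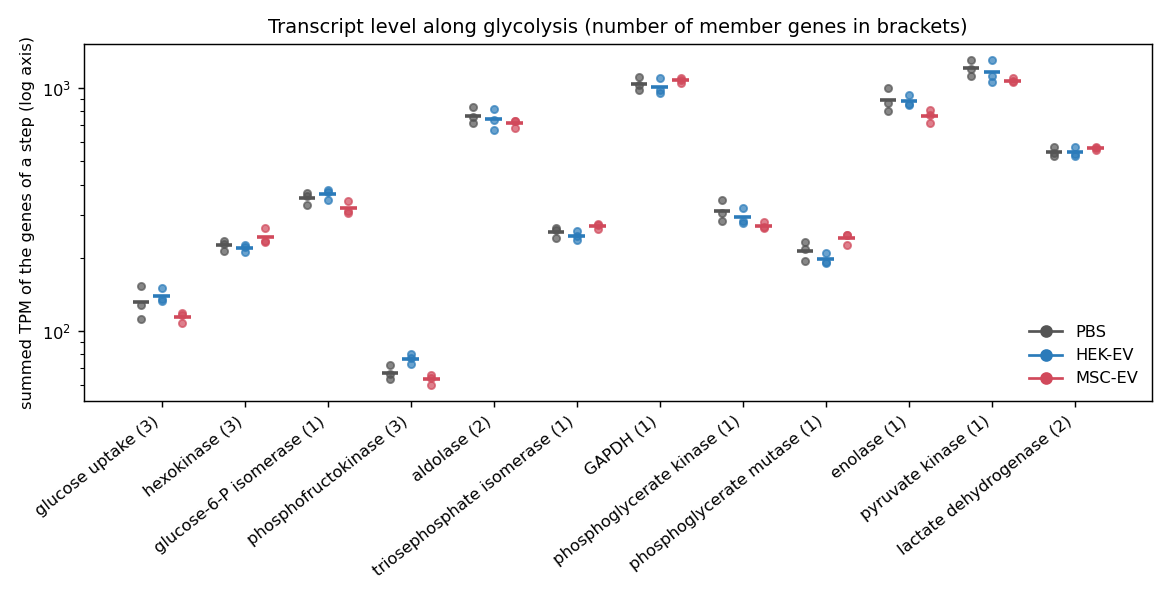
Summed TPM (log axis) of the member genes of each step from glucose uptake to lactate dehydrogenase, with 1 point per sample, a bar for the mean of each group of 3 and the number of genes in brackets. Pyruvate kinase and GAPDH lie highest and phosphofructokinase lowest, at 60.0 to 80.4 TPM, and the groups overlap or lie close at most steps.

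Within steps that have several genes, the isozyme of these cells was clear in most cases. Hk3, the hexokinase typical of myeloid cells, made up 53.8% to 65.8% of hexokinase TPM, Hk2 19.8% to 26.1% and Hk1 14.5% to 20.1%. The Hk3 share was 65.8%, 61.0% and 56.0% in the MSC-EV samples against 54.3% to 55.8% in PBS and 53.8% to 54.9% in HEK-EV, so the MSC-EV samples lay above the others, one of them by a narrow gap. Phosphofructokinase was mostly the liver type Pfkl (41.4% to 55.9%) and the platelet type Pfkp (36.9% to 53.4%), and the muscle type Pfkm stayed at 5.26% to 8.13%. Aldoa gave nearly all aldolase, since Aldoc held at most 0.544%. Ldha, whose subunit favours the making of lactate, held 95.6% to 96.9% of lactate dehydrogenase TPM. The 3 glucose transporters had similar shares, 30.4% to 40.5% for Slc2a1, 26.1% to 35.9% for Slc2a3 and 28.6% to 43.5% for Slc2a6. The shares are given as descriptions and were not tested.

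**Figure D2:**
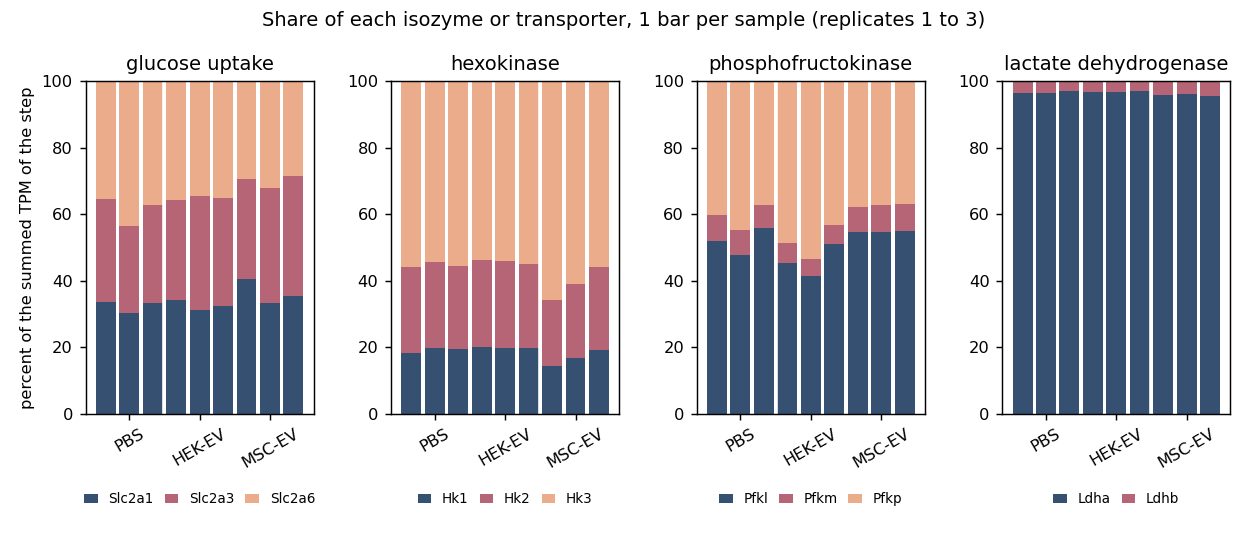
Percent of the summed TPM of a step held by each of its genes, with 1 stacked bar per sample, replicates 1 to 3 from left to right in each group. Hk3 exceeds 53% of hexokinase in every sample, the Pfkp share is highest in 2 HEK-EV samples (48.8% and 53.4%), and Ldha holds over 95% of lactate dehydrogenase.

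Whether vesicles of MSC went with another level of these genes is asked by setting the MSC-EV group against PBS. At an adjusted p under 0.05, 1 member rose (Ldhb) and 1 fell (Ndrg1), 2 of 34 or 5.88%, where 5.11% of all genes tested were called (1.86% higher and 3.25% lower). The members were thus called about as often as other genes. The median log2 fold change over the 34 was -0.10 against 0.01 over all genes tested, with 22 negative and 12 positive values. The median of the members was -0.05 with FPKM, -0.04 with quantile normalization and -0.15 with depth as a covariate. Without adjustment, 13 members (38.2%) had p under 0.05, against 23% of all genes. This excess depended on the setting. Of the 34 members and the 13820 genes, 8 and 3318 had an unadjusted p under 0.05 in limma with median-of-ratios scaling. The numbers were 5 and 2126 without PBS replicate 2, and 6 and 2559 without PBS replicate 3. They were 17 and 4078 without PBS replicate 1, and 21 and 5843 with array quality weights. The groups did not overlap for 11 members (32.4%), 3 higher and 8 lower, against 26% of all genes. The 95% intervals of all 34 fold changes lay within 1 log2 unit of 0, and those of 25 within 0.5.

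Against PBS, vesicles of HEK cells gave no call in limma for any member, and none among all genes tested (0%). At an unadjusted p under 0.05 there was 1 member (Pfkp, 2.94%), against 3.58% of all genes. The groups did not overlap for 1 member (Ddit4), against 7.81% of all genes. The median of the members was -0.03 and that of all genes 0.03, and the former was 0.0065 without HEK-EV replicate 2 and the latter -0.0018 with median-of-ratios scaling. The intervals of all 34 lay within 1 log2 unit of 0, and those of 30 within 0.5.

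Set against each other, the MSC-EV and HEK-EV groups differed in 3 of 34 members (8.82%), where 5.91% of all genes were called. Ldhb was higher in MSC-EV, and Pfkp and Slc16a3 were lower. Without adjustment, 14 members (41.2%) had p under 0.05, against 23.3% of all genes, and the groups did not overlap for 17 members (50%), 8 higher and 9 lower, against 30.1% of all genes. The medians were -0.06 for members and -0.02 for all genes. Both changed sign with the scaling, to 0.0089 and 0.0376 with FPKM and to 0.0051 and 0.0074 with quantile normalization. This comparison shares its MSC-EV samples with the first and its HEK-EV samples with the second.

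**Figure D3:**
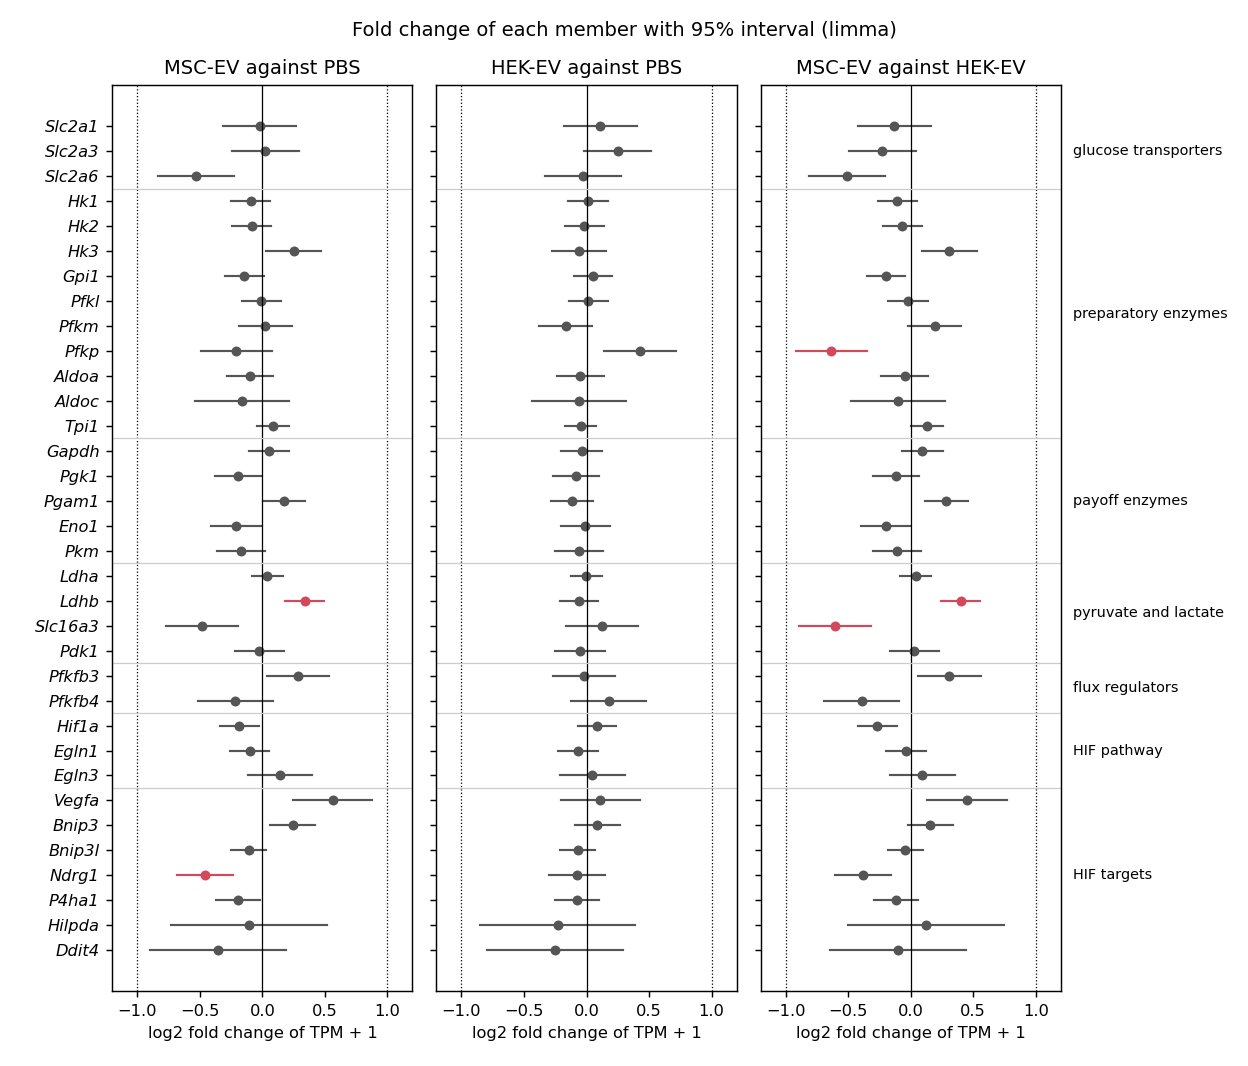
log2 fold change of TPM + 1 of each member (points) with its 95% interval (lines) from limma in the 3 comparisons, with genes ordered by role; red marks an adjusted p under 0.05 and dotted lines mark a doubling or halving. Every interval lies inside the dotted lines, with 2 red genes for MSC-EV against PBS, 0 for HEK-EV against PBS and 3 for MSC-EV against HEK-EV.

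Ldhb encodes the lactate dehydrogenase subunit that favours the conversion of lactate to pyruvate. Its level was 19.9, 18.2 and 17.4 TPM in the PBS samples, 18.1, 17.4 and 17.5 in HEK-EV and 24.0, 22.7 and 24.1 in MSC-EV. The 3 MSC-EV samples lay above the other 6, which overlapped each other. The log2 fold change was 0.34 against PBS (1.26-fold, SE 0.0685, adjusted p = 0.0313) and 0.40 against HEK-EV (1.32-fold, SE 0.0685, adjusted p = 0.0216). Its partner Ldha was level, at 526 ± 24.5, 525 ± 22.4 and 540 ± 8.55 TPM in PBS, HEK-EV and MSC-EV, and its interval against PBS ran from -0.09 to 0.16. The share of Ldhb in lactate dehydrogenase TPM was 3.41% ± 0.321 in PBS, 3.26% ± 0.156 in HEK-EV and 4.19% ± 0.166 in MSC-EV. In the same samples, summed markers of biliary, hepatocyte, lipid-associated macrophage and dendritic cells were higher, and those of Ly6C-high monocytes were lower. The biliary markers other than Spp1 were at 35.4 to 53.5 TPM in MSC-EV, 16.5 to 20.1 in PBS and 22.9 to 23.7 in HEK-EV. Spp1, which macrophages also express and which stands in both the biliary and the lipid-associated macrophage list, was at 1754 to 2336, 732 to 1702 and 884 to 1172 TPM. Hepatocyte markers, of which 2 of 9 were called higher against PBS, were at 365 to 492, 196 to 263 and 142 to 285 TPM, and lipid-associated macrophage markers other than Spp1 at 21687 to 24958, 11128 to 12531 and 13036 to 14515 TPM. Dendritic cell markers were at 150.9 to 187.9, 123.9 to 150.8 and 105.8 to 138.7 TPM, above PBS only by a narrow gap. Of the 8 tested, 4 differences were positive and 4 negative both against PBS and against HEK-EV, with 0 called. Ly6C-high monocyte markers were at 4156 to 5101, 6693 to 13268 and 8468 to 10785 TPM. Endothelial markers, at 151 to 288, 345 to 429 and 232 to 500 TPM, were lower than in PBS and overlapped HEK-EV. Neutrophil markers, at 3034 to 3837, 3114 to 5734 and 5123 to 7034 TPM, were lower than in HEK-EV and overlapped PBS. Against HEK-EV, 8 of these 10 differences were negative and 1 was called lower. The part of these markers in the result was not tested. The call against PBS ended without PBS replicate 2 (adjusted p = 0.137), PBS replicate 3 (0.103), HEK-EV replicate 2 (0.0558) or MSC-EV replicate 1 (0.128), 2 (0.0775) or 3 (0.0644), with acinar transcripts as a term (0.173) and in a fit of the 6 samples compared (0.0701), among other settings, with a fold change of 0.30 to 0.48 over all 22 alternatives. The call against HEK-EV ended without HEK-EV replicate 1 (0.0621), 2 (0.0598) or 3 (0.0616), without MSC-EV replicate 1 (0.0974) or 2 (0.0669), and with the acinar term (0.0589).

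Ndrg1 encodes a stress-response protein whose gene is induced by low oxygen. It stood at 36.1, 46.9 and 48.3 TPM in PBS, 40.1, 40.7 and 42.5 in HEK-EV and 30.9, 32.5 and 30.6 in MSC-EV. The MSC-EV samples lay below the other 6, with PBS replicate 1 nearest to them. It fell by 0.46 on the log2 scale against PBS (SE 0.101, adjusted p = 0.0376), and the difference from HEK-EV was -0.38 (SE 0.101, adjusted p = 0.0563), which passed in 5 of 22 alternatives. Markers of Ly6C-high monocytes summed to 6693 to 13268 TPM in PBS and 4156 to 5101 in MSC-EV. PBS replicate 1 was lowest of its group in them and for Ndrg1, and also in the summed neutrophil and general myeloid markers. It was highest of its group in the summed Kupffer, endothelial and lipid-associated macrophage markers, among others. Endothelial markers summed to 345 to 429 TPM in PBS and 151 to 288 in MSC-EV, with 9 of 10 differences negative and a median of -0.79. Lipid-associated macrophage and biliary markers went the other way, with 8 and 7 of 10 called higher. The part of these markers in the result was not tested. The call held without PBS replicate 1 and ended without any other sample, namely PBS replicate 2 (adjusted p = 0.160) or 3 (0.121), HEK-EV replicate 1 (0.0505), 2 (0.0641) or 3 (0.0511), and MSC-EV replicate 1 (0.135), 2 (0.0907) or 3 (0.0755). It also ended without a filter on low values (0.0742), with FPKM (0.0778), median-of-ratios scaling (0.0634), quantile normalization (0.0591), the acinar term (0.188) and a fit of the 6 samples compared (0.0786), and the fold change ran from -0.77, with depth as a covariate, to -0.38.

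Slc16a3 exports lactate from highly glycolytic cells. Its level was 83.7, 97.9 and 113.9 TPM in PBS, 98.6, 96.9 and 126.5 in HEK-EV and 68.7, 75.0 and 65.7 in MSC-EV. Every MSC-EV sample lay below every other sample. It fell by 0.61 against HEK-EV (SE 0.128, adjusted p = 0.0311), and the difference from PBS, -0.48, missed the threshold (SE 0.128, adjusted p = 0.0628) but passed it in 4 of 22 alternatives, with depth as a covariate (-0.77), with array quality weights and without PBS replicate 1 or HEK-EV replicate 3. The gene overlaps Csnk1d on the other strand. Markers of other cell types differed between MSC-EV and HEK-EV. Ly6C-high monocyte markers summed to 4156 to 5101 TPM in MSC-EV and 8468 to 10785 in HEK-EV, with 10 of 10 differences negative, 5 called lower and a median of -1.03. Neutrophil markers summed to 3034 to 3837 and 5123 to 7034 TPM, with 8 of 10 negative, 1 called lower and a median of -0.56. Endothelial markers summed to 151 to 288 and 232 to 500 TPM, with 9 of 10 negative, 0 called and a median of -0.70. Of the 10 lipid-associated macrophage markers, 7 were called higher, as were 7 of 10 biliary markers (median 0.77) and 4 of 9 hepatocyte markers (median 0.88). Their part in the result was not tested. The call against HEK-EV ended without any 1 of the HEK-EV samples (adjusted p = 0.0679, 0.0598 and 0.0795 without replicates 1, 2 and 3) or the MSC-EV samples (0.111, 0.0765 and 0.0682), without a filter (0.0735), and with FPKM (0.0690), median-of-ratios scaling (0.0590), quantile normalization (0.0521) and the acinar term (0.0748).

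Pfkp, the platelet type of phosphofructokinase, catalyses the committed step of glycolysis. It was at 25.4, 32.4 and 24.9 TPM in PBS, 37.7, 42.9 and 31.6 in HEK-EV and 24.8, 23.9 and 22.1 in MSC-EV. HEK-EV replicates 1 and 2 lay above all other samples, HEK-EV replicate 3 lay just below PBS replicate 2, and the MSC-EV samples lay lowest, only narrowly under 2 of the PBS samples. Pfkp fell by 0.63 between HEK-EV and MSC-EV (SE 0.127, adjusted p = 0.0270). The value for HEK-EV against PBS was 0.43 (SE 0.127, adjusted p = 0.999 in limma), the smallest unadjusted p of a member in that comparison, and that for MSC-EV against PBS was -0.21 (adjusted p = 0.377). Pfkp overlaps Pitrm1 and a predicted gene on the other strand. The monocyte, neutrophil, endothelial, lipid-associated macrophage, biliary and hepatocyte markers given beside Slc16a3 are of the same samples, and their part in the result was not tested. The call ended without any 1 of the HEK-EV samples (adjusted p = 0.0778, 0.0716 and 0.0535 without replicates 1, 2 and 3) or the MSC-EV samples (0.1, 0.0825 and 0.0591), without a filter (0.0618), and with FPKM (0.0501) and the acinar term (0.0580), and its fold change stayed between -0.75 and -0.53.

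Next to the threshold against PBS stood Vegfa and Slc2a6. Vegfa, the growth factor of blood vessels and a classical HIF target, was at 13.7, 11.8 and 16.7 TPM in PBS, 13.8, 15.5 and 16.3 in HEK-EV and 20.3, 25.0 and 18.4 in MSC-EV. The MSC-EV samples lay above the rest, with a log2 difference of 0.56 from PBS (SE 0.141, adjusted p = 0.0537). It passed in 2 of 22 alternatives, a filter at 5 TPM (adjusted p = 0.0479) and array quality weights (0.00232). Slc2a6 encodes a glucose transporter of lysosomal membranes that is found in macrophages. Its values were 39.4, 55.4 and 57.0 TPM in PBS, 48.7, 45.9 and 52.9 in HEK-EV and 34.8, 37.5 and 30.8 in MSC-EV, a log2 difference of -0.53 from PBS (SE 0.135, adjusted p = 0.0553). It passed in 3 of 22 alternatives, with depth as a covariate (-0.92, adjusted p = 0.0102), without PBS replicate 1 (-0.70, adjusted p = 0.00319) and with array quality weights (-0.64, adjusted p = 0.00125). Vegfa and Ndrg1, both HIF targets, thus had differences of opposite sign.

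**Figure D4:**
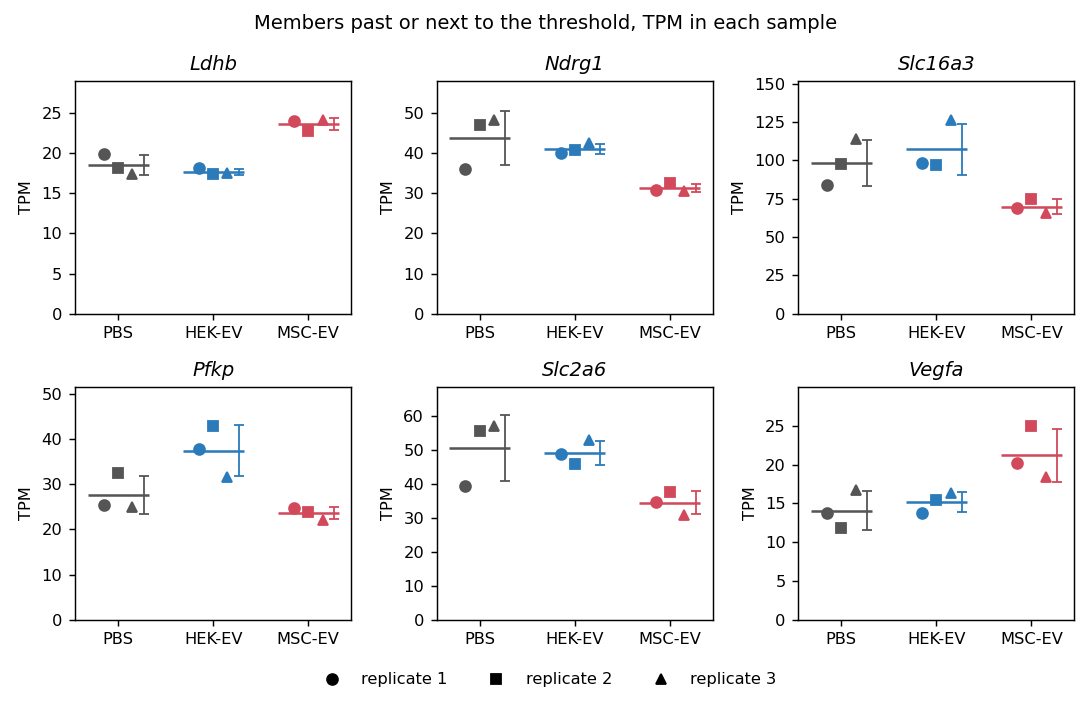
TPM of 6 members in each sample (symbol shape gives the replicate), with the group mean (horizontal line) and SD (error bar, n = 3 per group) and axes from 0. The MSC-EV samples lie above the other 6 for Ldhb and Vegfa and below them for Ndrg1, Slc16a3, Slc2a6 and Pfkp.

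The start regions of these genes show how unevenly the letters bound by HIF-1 are spread among members. HIF-1 binds a short site around ACGTG, and only these letters were searched, not other forms of the site. Where a C stands before ACGTG, the 6 letters read the same on both strands, are counted here as 1 site, and are also the E-box of other factors. Over windows from 250 bases before to 50 bases after a RefSeq start (GRCm38.p6), ACGTG on either strand occurred for 22 of 31 members with a window (71.0%), against 5886 of 27025 genes (21.8%). Per window it was 25 of 46 (54.3%) against 19.6% of all windows. The 27025 genes were not limited to the 13820 that passed the filter on low values, as all members did. Some members were also chosen as HIF targets. The difference in shares was not tested. The members without it were Slc2a6, Gpi1, Pfkl, Pfkp, Tpi1, Eno1, Ldhb, Pdk1 and Pfkfb4. No window was used for Slc2a3, Bnip3l and Ndrg1. The 150 bases before a start are shown for the 3 called members that have a window and for Ldha, as the partner of Ldhb, with each match on either strand in capitals. They are RefSeq sequences of GRCm38.p6, read 5′ to 3′ on the strand of the gene. Ldha lies at chr7:46845654-46845803 (plus strand), Ldhb at chr6:142507958-142508107 (minus), Slc16a3 at chr11:120948917-120949066 (plus) and Pfkp at chr13:6648772-6648921 (minus).
Ldha: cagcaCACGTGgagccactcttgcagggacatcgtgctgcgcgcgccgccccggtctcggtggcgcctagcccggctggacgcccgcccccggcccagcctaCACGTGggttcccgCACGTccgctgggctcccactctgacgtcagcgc
Ldhb: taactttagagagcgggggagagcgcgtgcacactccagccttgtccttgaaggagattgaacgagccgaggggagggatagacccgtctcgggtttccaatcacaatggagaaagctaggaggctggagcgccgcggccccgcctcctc
Slc16a3: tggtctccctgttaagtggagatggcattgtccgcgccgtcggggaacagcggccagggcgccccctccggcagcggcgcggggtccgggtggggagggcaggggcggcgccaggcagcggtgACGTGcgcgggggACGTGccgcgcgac
Pfkp: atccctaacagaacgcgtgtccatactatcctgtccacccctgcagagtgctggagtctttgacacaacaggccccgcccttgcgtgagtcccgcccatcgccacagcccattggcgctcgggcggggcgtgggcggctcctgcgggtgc
Ldha holds 3 sites in this stretch, 145, 48 and 34 bases before the start used, and Slc16a3 holds 2, at 27 and 14 bases. The window of a second Ldha start, at chr7:46846832-46847131, holds 0. Ldhb and Pfkp hold none. A match of letters is a description of the sequence and was not measured as binding. Among the called members, Ldhb (higher in MSC-EV) and Pfkp (lower) have no match to ACGTG and Slc16a3 (lower) has 2.

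The remaining members are given by role. Of the glucose transporters, Slc2a1, the basal carrier of most cells, held 37.4 to 50.9 TPM, with a difference of -0.02 for MSC-EV against PBS (interval -0.31 to 0.27). Slc2a3, a carrier of high affinity, held 33.3 to 49.0 TPM and overlaps a predicted gene on the same strand. It was at 34.8, 33.3 and 45.5 TPM in PBS, 40.5, 45.3 and 49.0 in HEK-EV and 35.3, 40.4 and 38.7 in MSC-EV. Its difference for HEK-EV against PBS, 0.25 (SE 0.119, adjusted p = 0.999 in limma), was second by unadjusted p in that comparison, and the groups overlapped.

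The 10 preparatory enzymes belong to the phase of glycolysis that consumes ATP, and none of them was called against PBS. Their fold changes against PBS ran from -0.21 to 0.25 for MSC-EV and from -0.17 to 0.43 for HEK-EV. Hk3 was at 131, 124 and 119 TPM in PBS, 122, 114 and 122 in HEK-EV and 175, 143 and 130 in MSC-EV, a difference of 0.25 from PBS (adjusted p = 0.163). MSC-EV replicate 1 was far above the rest, and MSC-EV replicate 3 lay just below the highest PBS sample. Hk1 held 38.4 to 45.5 TPM and Hk2, the hexokinase induced by HIF-1, 52.4 to 61.0 TPM. Gpi1, which converts glucose-6-phosphate to fructose-6-phosphate, held 305 to 380 TPM and Pfkl 32.7 to 37.3 TPM. Pfkm was at 4.96, 5.43 and 4.51 TPM in PBS, 4.53, 4.23 and 4.15 in HEK-EV and 5.10, 5.17 and 4.87 in MSC-EV. Its HEK-EV values reached into the PBS range, with a difference of -0.17 (SE 0.0938, adjusted p = 0.999 in limma). The aldolase that splits fructose bisphosphate, Aldoa, held 670 to 828 TPM, Aldoc 2.62 to 4.21 TPM, and triosephosphate isomerase (Tpi1) 237 to 276 TPM.

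The 5 payoff enzymes, of the phase that recovers ATP and NADH, ran from -0.21 to 0.17 for MSC-EV against PBS and none was called. Pgk1, the first enzyme to make ATP, was at 312 ± 31.1 TPM in PBS, 294 ± 23.4 in HEK-EV and 271 ± 7.97 in MSC-EV. Eno1 was at 890 ± 100.2, 881 ± 48.1 and 767 ± 48.6 TPM in the same order, and Pkm at 1204 ± 89.7, 1158 ± 125 and 1069 ± 21.0 TPM. Each of these had a lower mean in MSC-EV, with adjusted p from 0.184 to 0.277 against PBS, and Eno1 passed with array quality weights and with depth as a covariate (-0.42). Pgam1, phosphoglycerate mutase, differed the other way. It was at 231, 194 and 217 TPM in PBS, 190, 192 and 209 in HEK-EV and 248, 247 and 226 in MSC-EV. The MSC-EV samples lay above all HEK-EV samples and overlapped PBS, with differences of 0.29 from HEK-EV (SE 0.0749, adjusted p = 0.0561), which passed in 6 of 22 alternatives, and 0.17 from PBS (adjusted p = 0.214). For HEK-EV against PBS the value was -0.12 (SE 0.0749, adjusted p = 0.999 in limma). Gapdh was at 1037 ± 67.4, 1009 ± 75.5 and 1075 ± 28.4 TPM in PBS, HEK-EV and MSC-EV, and its intervals in all 3 comparisons lay between -0.20 and 0.26.

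The kinase Pdk1, which inhibits pyruvate dehydrogenase, was level at 12.1 to 14.5 TPM. Pfkfb3 and Pfkfb4 make fructose-2,6-bisphosphate, the activator of phosphofructokinase. Pfkfb3 was at 42.0 ± 3.61 TPM in PBS, 41.3 ± 2.66 in HEK-EV and 51.7 ± 8.04 in MSC-EV (0.29 against PBS, adjusted p = 0.158), and Pfkfb4 at 56.3 ± 8.24, 63.3 ± 3.92 and 48.5 ± 8.39 TPM (-0.22 against PBS, adjusted p = 0.384). The differences of this pair had opposite signs, and neither passed, except with array quality weights. With these weights both passed, against PBS and against HEK-EV.

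In the HIF pathway, Hif1a encodes the oxygen-regulated subunit, whose level is set mainly by protein decay. It was at 64.0, 67.3 and 69.9 TPM in PBS, 77.6, 66.7 and 69.3 in HEK-EV and 61.6, 57.0 and 57.9 in MSC-EV. The MSC-EV samples lay below the other 6, by differences of -0.27 from HEK-EV (SE 0.0692, adjusted p = 0.0532) and -0.18 from PBS (adjusted p = 0.147). The former passed with a filter at 5 TPM, with array quality weights and without PBS replicate 1. Hif1a overlaps a predicted gene on the other strand. The main oxygen sensor Egln1 held 21.9 to 26.5 TPM, and Egln3, itself a HIF target, 1.97 to 2.78 TPM, the lowest mean of all members.

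Of the other HIF targets, Bnip3 and Bnip3l encode receptors for the removal of mitochondria. Bnip3 was at 20.0 ± 1.73 TPM in PBS, 21.3 ± 1.41 in HEK-EV and 23.8 ± 0.831 in MSC-EV, with no overlap between MSC-EV and PBS (0.24, adjusted p = 0.105). Bnip3l held 77.1 to 88.5 TPM. P4ha1, a collagen prolyl hydroxylase, was at 75.0 ± 5.67, 71.1 ± 5.58 and 65.4 ± 3.13 TPM in PBS, HEK-EV and MSC-EV (-0.19 against PBS, adjusted p = 0.176). Hilpda, which blocks lipolysis at lipid droplets, varied most within a group relative to its mean, at 10.8, 11.6 and 25.6 TPM in HEK-EV, against 14.0 to 21.0 in PBS and 15.0 to 16.96 in MSC-EV. Ddit4, an inhibitor of mTORC1, was at 27.8, 27.7 and 30.2 TPM in PBS, 22.2, 22.8 and 26.5 in HEK-EV and 22.1, 14.2 and 34.2 in MSC-EV. Its HEK-EV samples lay below PBS while MSC-EV samples spread on both sides of them. The intervals of Hilpda and Ddit4 against PBS were the widest of the members, from -0.73 to 0.51 and from -0.90 to 0.19 for MSC-EV.

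In 2 of the groups, 1 sample was the highest for most members. PBS replicate 3 was the highest PBS sample for 20 of 34 members (58.8%), against 19.7% of all genes tested, and HEK-EV replicate 3 was the highest for 23 of 34 (67.6%), against 42.4%. In MSC-EV no sample stood out so over the 34 members: replicates 1, 2 and 3 were the highest for 13, 12 and 9 members (38.2%, 35.3% and 26.5%), against 24.3%, 24.7% and 50.9% of all genes. Among the 17 enzyme genes alone, MSC-EV replicate 1 was the highest of its group for 9 (52.9%). PBS replicate 3 was likewise the highest for 9 (52.9%) and HEK-EV replicate 3 for 12 (70.6%). The summed markers of neutrophils, Ly6C-high monocytes and hepatocytes were highest of their groups in PBS replicate 3 and HEK-EV replicate 3. They were at 5734, 13268 and 263 TPM in PBS replicate 3 and 7034, 10785 and 285 TPM in HEK-EV replicate 3. Myeloid identity markers were highest in PBS replicate 3 (28437 TPM) but lowest in HEK-EV replicate 3 (23900 TPM). Kupffer, endothelial and erythroid markers were highest in HEK-EV replicate 3 (8936, 500.1 and 2.49 TPM) but lowest in PBS replicate 3 (6657, 344.8 and 2.25 TPM). Lipid-associated macrophage and dendritic cell markers were lowest of their groups in both samples. They were at 12108 and 123.9 TPM in PBS replicate 3 and 14208 and 105.8 TPM in HEK-EV replicate 3. The biliary markers other than Spp1 were at 22.9 to 23.7 TPM over the HEK-EV samples. Their part in this pattern was not tested.

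For 8 members other genes hold near-identical copies, so reads could be shared among rows. The 68 copies of Gapdh, 39 of which reached 1 TPM in a sample, held 59.4% to 62.2% of the summed TPM of gene and copies. The single copy of Pgam1 held 29.4% to 31.5%, the 2 of Pgk1 13.1% to 14.6%, the 3 of Eno1 9.06% to 10.7%, the 1 of Bnip3l 7.32% to 9.62%, the 3 of Bnip3 3.86% to 6.98%, the 1 of Pkm 1.11% to 1.52% and the 3 of Ldha at most 0.0397%. The share of each was similar in the 3 groups, as for Gapdh at 61.0% ± 0.907 in PBS, 61.0% ± 1.35 in HEK-EV and 61.2% ± 0.974 in MSC-EV. The levels of these 8 genes are uncertain to that extent. Summing the copies with the member left the numbers of called members at 2, 0 and 3.

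**Figure D5:**
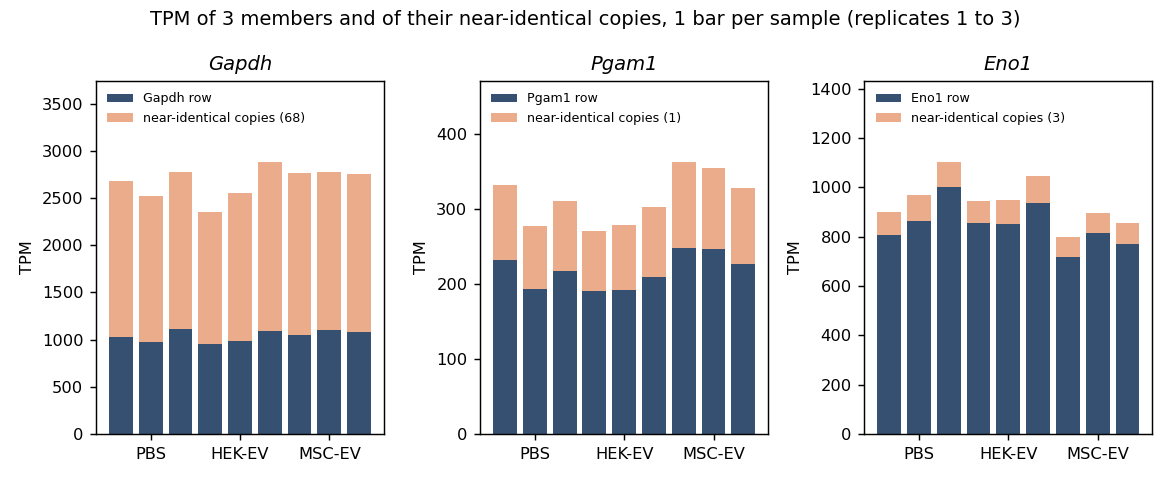
TPM of the Gapdh, Pgam1 and Eno1 rows (dark) with the summed TPM of their near-identical copies (light) stacked on top, 1 bar per sample, replicates 1 to 3 from left to right in each group. Copies hold 59.4% to 62.2% of the Gapdh total, 29.4% to 31.5% for Pgam1 and 9.06% to 10.7% for Eno1 in every group.

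Other genes of the same pathways were read from 8 lists of related genes. Over these lists together, 7 of 111 genes tested were called in MSC-EV against PBS and 39 had an unadjusted p under 0.05, where 5.11% and 23% of all genes did. Of all genes, only 5 were called with the acinar term, 5 without PBS replicate 2 and 7 without PBS replicate 3. The 7 calls therefore could not all hold with the acinar term or without PBS replicate 2. Of 15 other glycolysis genes tested, 1 was called against PBS, the muscle-type enolase Eno3, which fell from 61.0, 86.7 and 84.1 TPM to 30.4, 44.6 and 31.6 TPM (-1.10, SE 0.173, adjusted p = 0.0197), with 77.3, 62.4 and 62.4 TPM in HEK-EV. Every MSC-EV sample lay below every other sample. Of 7 other carriers, Slc2a2, the glucose carrier of hepatocytes, was called higher. It rose from 0.463 to 0.687 TPM in PBS to 1.83 to 2.49 TPM in MSC-EV (1.05, SE 0.155, adjusted p = 0.0171). Slc2a2 stayed under 1 TPM in all PBS samples and in HEK-EV replicates 1 and 2. It thus passed the filter on low values only because the MSC-EV samples, where it was higher, reached 1 TPM. Hepatocyte markers were also higher in MSC-EV, and their part in the result was not tested. Of 13 genes for pyruvate entry into mitochondria, the phosphatase Pdp1, which activates pyruvate dehydrogenase, rose from 4.41 to 5.47 TPM to 6.24 to 8.41 TPM (0.55, SE 0.128, adjusted p = 0.0441). None of the 9 pentose phosphate genes was called against PBS, and 7 of the 9 differences were negative. At an unadjusted p under 0.05 in limma there were 7 of the 9 pentose phosphate genes, 7 of the 15 glycolysis genes, 5 of the 7 carriers and 1 of the 13 genes for pyruvate entry.

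Of 28 other hypoxia targets tested, 3 were called against PBS, 9 had an unadjusted p under 0.05, and 14 differences were positive and 14 negative; the shares over all genes were 5.11% called and 23% with an unadjusted p under 0.05, here and for the lists that follow. Ankrd37 fell from 5.29, 7.68 and 9.14 TPM to 4.19, 3.34 and 2.89 TPM (-0.89, SE 0.176, adjusted p = 0.0300). Flt1, a receptor of Vegfa, fell from 14.5 to 21.0 TPM to 9.36 to 11.97 TPM (-0.67, SE 0.147, adjusted p = 0.0376). Endothelial cells express Flt1, and their 10 markers summed to 345 to 429 TPM in PBS and 151 to 288 in MSC-EV. These markers had 9 negative differences, a median of -0.79 and 9 unadjusted p under 0.05 in limma, with none called. Their part in the result was not tested. The creatine carrier Slc6a8 rose from 17.9, 6.39 and 6.87 TPM to 26.6, 23.5 and 22.6 TPM (1.29, SE 0.307, adjusted p = 0.0467), and its PBS replicate 1 stood well above the other PBS samples. Of 11 genes listed with the ATF4 stress response, 4 had an unadjusted p under 0.05 and 1 was called, Vegfb, a relative of Vegfa, which rose from 11.0 to 19.0 TPM to 20.7 to 26.9 TPM (0.74, SE 0.180, adjusted p = 0.0481). None of 14 genes of gluconeogenesis and glycogen and none of 14 other genes of the HIF machinery was called against PBS, and 3 of each list had an unadjusted p under 0.05 in limma.

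For HEK-EV against PBS, limma called none of the 111 genes tested in these 8 lists, and 7 of them had an unadjusted p under 0.05, where 3.58% of all genes fell. In MSC-EV against HEK-EV, 9 of the 111 were called, where 5.91% of all genes were. They were Eno3, Slc2a2, Pdp1, Ankrd37 and Vegfb again, and 4 more, named after their values were seen. G6pdx, the entry enzyme of the pentose phosphate pathway, was at 238 to 241 TPM in HEK-EV and 199.9 to 206 in MSC-EV (-0.24, SE 0.0549, adjusted p = 0.0387). The glycogen phosphorylase Pygl was at 172 to 187 and 124 to 141 TPM (-0.47, SE 0.0989, adjusted p = 0.0311). Rbpj, the DNA-binding factor of Notch signalling, differed by -0.35 (SE 0.0770, adjusted p = 0.0341) and the stress protein Sesn2 by -0.32 (SE 0.0809, adjusted p = 0.0494). All 9 calls ended with the acinar term, where 0 of all genes were called in this comparison. They likewise ended, with 0 genes called, when MSC-EV replicate 1, MSC-EV replicate 2 or HEK-EV replicate 2 was dropped. Dropping HEK-EV replicate 1 left 1 call among all genes.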

How the data were processed

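Groups of the 9 samples follow the treatment label. The 34 members were matched by gene ID through RefSeq (GRCm38.p6), where 45679 of the 45777 IDs were found. Reads were aligned to mm10 with HISAT2 2.1.0 and quantified with StringTie, per the submitters' processing notes. The annotation, the strand setting and the handling of reads that map to several places are not given in the sources used here. Per the labels' protocols, a stranded mRNA kit was used. The tables held TPM, FPKM and coverage as deposited by the authors, without read counts. TPM, as the authors deposited it, adds up to 1000000 per sample. FPKM as deposited by the authors served as an alternative scale, and coverage, a mean read signal per base as deposited by the authors, served for a relative depth (coverage divided by FPKM). The depth in reads is therefore unknown.

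Rows of 1 gene ID were summed. The 13820 genes that reached 1 TPM in 3 or more samples were kept. log2(TPM + 1) was fitted with limma 3.58.1 in R 4.3.3 (eBayes with a trend) over all 9 samples without covariates, and p-values were two-sided and adjusted by Benjamini-Hochberg over the 13820 genes, with a threshold of 0.05. Members past the threshold in any comparison, and the 4 of smallest p in each, are given with every sample's value. Most other members are given by ranges or group means; Hk3, Ddit4 and Hilpda, shown by sample, and the members shown by group means were chosen after their values were seen. From each related gene list up to 4 genes past the threshold against PBS are named. The members, the related lists, the marker lists and these rules were chosen with earlier results of these data known. The fit was tested on simulated data, and the outcome is not reported here. Near-identical copies of a member were genes with a GENCODE vM21 transcript at least 95% identical over at least 300 bases. The alternatives were a pseudocount of 0.1 TPM, no filter, a filter at 5 TPM, FPKM, median-of-ratios scaling, quantile normalization, a fit of the 6 samples compared, a replicate block, array quality weights, relative depth as a covariate, samples with acinar transcripts as a term, named pseudogenes summed with the member, and leaving out each sample. Summing near-identical copies was chosen after seeing the data. Python 3.11.15, numpy 2.4.6, pandas 2.3.3 and matplotlib 3.10.9 were used for tables and figures.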

Additional observations from a re-analysis of the deposited data

How the results depend on the processing

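Over the 22 alternatives no called member changed direction, and no member was called for HEK-EV against PBS in any. Numbers of called genes are given in the order MSC-EV against PBS and MSC-EV against HEK-EV, for all genes and then for members. Without a filter they were 361 and 387 genes and 1 and 1 members (and 4 genes for HEK-EV against PBS). With the replicate block they were 404 and 448 genes and 1 and 3 members, the 1 being Ndrg1, while Ldhb stood at an adjusted p = 0.0585. The labels do not say whether the replicate numbers pair the samples. Correlations of deviations between same-numbered samples ran from -0.499 to 0.058, which cannot decide this with 3 samples per group. With depth as a covariate 1340 and 1446 genes and 5 and 6 members were called, with array quality weights 4163 and 2081 genes and 17 and 12 members, and with acinar transcripts as a term 5 and 0 genes and 0 and 0 members. The 6 samples compared gave 77 and 1098 genes and 0 and 6 members. A filter at 5 TPM gave 3 and 5 members. FPKM gave 459 genes for MSC-EV against HEK-EV and 1 and 1 members, median-of-ratios scaling 501 genes there and 1 and 2 members, and quantile normalization 1 and 3 members. The calls for MSC-EV against PBS, 257 higher and 449 lower with TPM, were 350 and 205 with FPKM, 279 and 333 with median-of-ratios scaling and 312 and 389 with quantile normalization; those for MSC-EV against HEK-EV, 209 and 608, were 273 and 186, 220 and 281, and 316 and 378. The cause of these shifts was not tested. Leaving out 1 sample gave 5 to 1861 genes and 0 to 4 members against PBS, 0 to 1369 genes and 0 to 7 members against HEK-EV, and 0 to 2 genes for HEK-EV against PBS. The highest numbers came without PBS replicate 1 (1861 and 1369 genes, 4 and 7 members). Fold changes took both signs over the alternatives for 7, 20 and 8 of the 34 members in MSC-EV against PBS, HEK-EV against PBS and MSC-EV against HEK-EV. Counting error could not be given, since the tables hold no read counts.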
